A study of Mus musculus with 12 samples.

Results

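Growth factors of the FGF, PDGF, VEGF and IGF families, their receptors and the IGF-binding proteins were followed in mouse embryonic fibroblasts that were converted to adipocytes. The genes were chosen by symbol in the annotation of the array, as all names of the form Fgf, Fgfr and Igfbp with a number, all names starting with Pdgf or Vegf, and Pgf, Igf1, Igf2, Igf1r and Igf2r. This gave 51 of the 19938 genes measured, each read by 1 probe set assigned to that gene alone. They comprise 22 FGF ligands by symbol, with the intracellular Fgf11, Fgf12, Fgf13 and Fgf14 among them, and 4 FGF receptors. Further members are 4 PDGF ligands, 3 genes named as PDGF receptors, 5 VEGF ligands, 2 IGF ligands, 2 IGF receptors and 7 IGF-binding proteins. The other 2 entered by symbol only: Fgf2os is the transcript opposite Fgf2, and Fgfr1op2 is named for a fusion partner of FGFR1 and is neither ligand nor receptor.

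These families act through cell-surface receptor tyrosine kinases. FGFs signal through FGF receptors with heparan sulphate or Klotho proteins as coreceptors, PDGF dimers act on the PDGF receptors that mark mesenchymal progenitors, and VEGF ligands act mainly on endothelial cells, which they recruit to growing fat. IGF1 and IGF2 signal through the IGF1 receptor, while the IGF-binding proteins hold them outside the cell, and IGF signalling is long known as a stimulus of adipocyte formation.

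The 12 samples were single-colour arrays of total RNA, 3 in each of 4 groups: differentiated D1D2KO, undifferentiated D1D2KO, differentiated WT and undifferentiated WT. All cells were fibroblasts of the C57BL6 strain from embryos of embryonic day 14, and D1D2KO cells are the knockout of the diacylglycerol acyltransferases DGAT1 and DGAT2, which complete triacylglycerol synthesis. Differentiated cells of both genotypes had received dexamethasone (1 µM), isobutylmethylxanthine (500 µM), insulin (5 µg/ml) and troglitazone (15 µM), then insulin with troglitazone at those doses, then normal medium, so insulin, which shares part of the IGF pathway, was among the agents in every differentiated sample. Undifferentiated cells have no such treatment in their labels. The samples of a group are described as biological replicates, but how the alleles were made and how many embryos or cultures stand behind each group are not stated in the labels. The p-values cover only the spread among these samples, and the small number of arrays limits their precision.

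Signals are the deposited log2 values, and differences are differences of group means on that scale with their standard error (SE) from limma, from 3 samples in each group. A gene was called, and is said to have risen or fallen, where its p adjusted by Benjamini-Hochberg over all 19938 genes was under 0.05. The knockout was checked by its targets: both were lower in D1D2KO than in WT cells without overlap, with differences of -1.39 (SE 0.11) differentiated and -1.34 (SE 0.11) undifferentiated for Dgat1, and of -1.67 (SE 0.13) differentiated and -0.47 (SE 0.13) undifferentiated for Dgat2. Both still rose on differentiation in D1D2KO cells, Dgat1 by 2.41 (SE 0.11) and Dgat2 by 3.07 (SE 0.13). Dgat1 had 8.26, 8.03 and 7.75 in differentiated D1D2KO cells, and Dgat2 had 8.37, 8.62 and 8.66, all above undifferentiated WT cells (6.93 to 6.98 for Dgat1 and 5.94 to 5.98 for Dgat2). Where these probes lie relative to the deleted sequence is not given in the sources used here. Whether the remaining signal comes from functional transcript was not tested. The adipocyte label held in both genotypes: all 7 measured adipocyte markers rose on differentiation, and their mean signal was 10.72 to 10.99 in differentiated D1D2KO cells, against 5.38 to 5.50 in undifferentiated D1D2KO cells, and 10.30 to 10.51 in differentiated WT cells, against 5.63 to 5.71 in undifferentiated WT cells. Fibroblast markers stayed high, with means of 10.40 to 10.49 in differentiated D1D2KO cells, against 11.33 to 11.35 undifferentiated, and 10.75 to 10.78 in differentiated WT cells, against 11.30 to 11.37 undifferentiated, and 7 of 8 fell in each genotype. Macrophage markers were present too, at means of 8.23 to 8.26 in differentiated D1D2KO cells, against 9.02 to 9.07 undifferentiated, and 8.28 to 8.35 in differentiated WT cells, against 8.99 to 9.07 undifferentiated, with 6 of 8 falling and Cd163 rising in each genotype. Neural and glial markers fell for 6 of 7 in each genotype, and smooth muscle and pericyte markers for 5 of 8 in D1D2KO cells, where 1 rose, and for 3 of 8 in WT cells. Beside these marker counts, 21.2% of all genes were called lower and 15.4% higher in D1D2KO differentiation. In WT differentiation the shares were 19.4% lower and 14.7% higher. Means of the 8 endothelial markers were 5.00 to 5.07 in differentiated D1D2KO cells, 5.14 to 5.18 in undifferentiated D1D2KO cells, 4.81 to 4.93 in differentiated WT cells and 4.99 to 5.08 in undifferentiated WT cells, under the median of every array (5.61 to 5.69).

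On differentiation, Vegfa rose most among the 51 genes in both genotypes, Fgf10 rose, and most PDGF and IGF system genes fell. In D1D2KO cells 8 genes rose and 22 fell, 58.8% of the 51, against 36.7% of all genes called (15.4% higher, 21.2% lower). In WT cells 8 rose and 20 fell, 54.9% of the 51, against 34.1% of all genes (14.7% higher, 19.4% lower). The same 7 genes rose and the same 19 fell in both genotypes, and none was called in opposite directions. The median difference of the 51 was -0.11 in D1D2KO and -0.05 in WT cells, while over all genes it was 0.01 in D1D2KO and 0.02 in WT cells. Differences of at least 2-fold were called for 2 genes higher and 8 lower in D1D2KO cells (all genes 3.56% higher, 2.93% lower) and for 3 genes higher and 5 lower in WT cells (all genes 2.6% higher, 1.99% lower). In bulk RNA, fewer cells of a type and less RNA per cell cannot be told apart, and the part of the falling fibroblast, macrophage, neural and glial, and smooth muscle and pericyte markers in these falls was not tested.

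**Figure D1:**
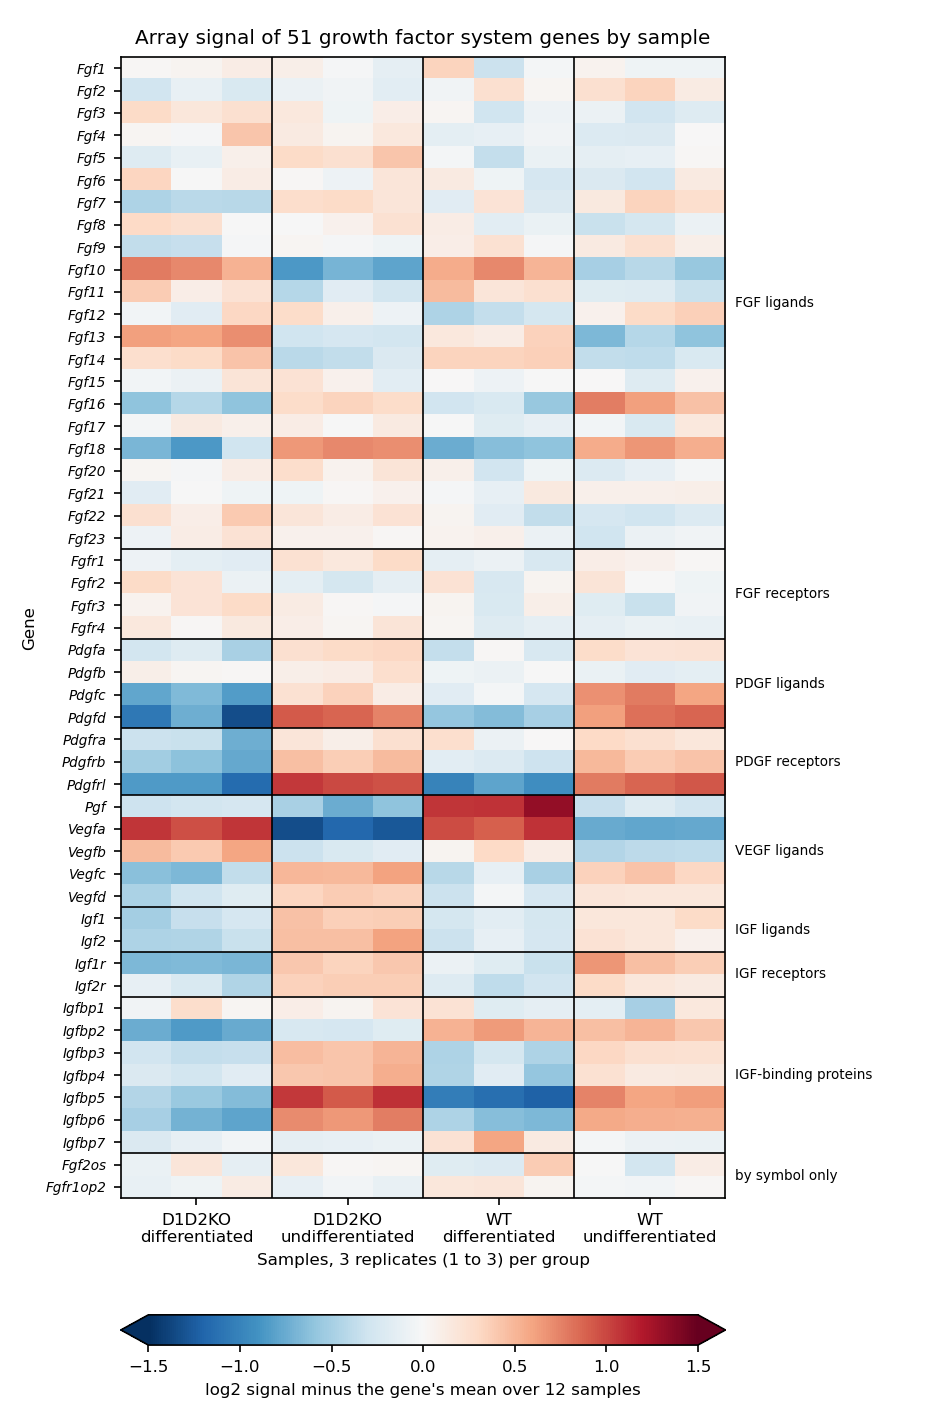
Signal of each of the 51 genes (vertical axis, grouped by role) in each of the 12 samples (horizontal axis, 3 replicates per group), as log2 signal minus the gene's mean over the 12 samples, with colours limited at 1.5. Most PDGF and IGF genes are blue in differentiated and red in undifferentiated cells of both genotypes, Vegfa and Fgf10 show the reverse, and Pgf is high only in the 3 differentiated WT samples.

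Between the genotypes, 16 of the 51 genes were called in differentiated cells, 6 higher and 10 lower in D1D2KO (31.4%, against 13.7% of all genes, 6.25% higher and 7.42% lower). In undifferentiated cells 10 were called, 5 higher and 5 lower (19.6%, against 8.02% of all genes, 4.40% higher and 3.62% lower). The response to differentiation itself differed between D1D2KO and WT cells for 4 genes, Pgf, Vegfa, Igfbp2 and Igf2 (7.84%, against 1.46% of all genes, 0.747% higher and 0.712% lower). The median difference of the 51 genes was 0.03 in differentiated cells, 0.13 in undifferentiated cells and -0.12 for the difference in response, against 0.03, 0.02 and -0.01 over all genes. The split into higher and lower calls over all genes depended on the scaling: 45.7% of calls were higher in differentiated D1D2KO cells as deposited and 29.5% with each array centred on its median. For undifferentiated cells these shares were 54.9% and 32.3%, and 44.0% after quantile normalization. Differences of at least 2-fold were called for 2 of the 51 genes in differentiated cells, both lower in D1D2KO (all genes 0.371% lower, 0.0351% higher), for none in undifferentiated cells (all genes 0.271% lower, 0.0201% higher), and for 1, Pgf, in the difference in response (all genes 0.0652% lower, 0.130% higher). For the 51 genes centring gave 5 higher and 11 lower in differentiated cells and 4 higher and 7 lower in undifferentiated cells.

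The 4 genes whose response differed are shown with the 250 bases before the first start that RefSeq lists for each (GRCm38.p6), because a promoter of each can be read beside its values. Capitals mark the GC box GGGCGG and the hypoxia response core ACGTG, each searched on both strands. The windows are chr12:85177314-85177563 on the minus strand for Pgf, chr17:46032378-46032627 on the minus strand for Vegfa, chr1:72824230-72824479 on the plus strand for Igfbp2 and chr7:142666817-142667066 on the minus strand for Igf2.
Pgf: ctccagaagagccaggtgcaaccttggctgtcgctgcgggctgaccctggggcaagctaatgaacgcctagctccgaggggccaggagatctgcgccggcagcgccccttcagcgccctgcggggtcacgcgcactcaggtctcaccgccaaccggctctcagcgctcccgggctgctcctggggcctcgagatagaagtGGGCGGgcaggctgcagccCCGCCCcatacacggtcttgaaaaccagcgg
Vegfa: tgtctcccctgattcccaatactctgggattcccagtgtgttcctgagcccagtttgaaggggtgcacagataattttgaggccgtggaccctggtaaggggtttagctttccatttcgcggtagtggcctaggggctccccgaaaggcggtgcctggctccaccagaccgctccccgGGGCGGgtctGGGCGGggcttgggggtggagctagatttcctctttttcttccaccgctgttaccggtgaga
Igfbp2: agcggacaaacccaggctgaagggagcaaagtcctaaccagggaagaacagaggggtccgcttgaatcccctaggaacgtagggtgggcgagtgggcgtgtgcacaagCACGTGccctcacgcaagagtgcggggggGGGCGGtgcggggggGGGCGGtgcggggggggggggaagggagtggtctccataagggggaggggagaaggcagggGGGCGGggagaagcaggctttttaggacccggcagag
Igf2: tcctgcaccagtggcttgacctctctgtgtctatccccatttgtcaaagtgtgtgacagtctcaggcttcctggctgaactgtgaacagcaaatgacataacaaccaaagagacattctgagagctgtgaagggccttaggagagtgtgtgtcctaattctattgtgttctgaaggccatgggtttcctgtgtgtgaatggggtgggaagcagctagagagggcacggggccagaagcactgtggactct
The Pgf and Vegfa windows hold 2 GC boxes each, the Igfbp2 window 3, and the Igf2 window 0. ACGTG is found in the Igfbp2 window only, as a palindrome read on both strands, so its 2 matches overlap. Of 32851 windows of this length, 32.7% hold the GC box and 16.6% the hypoxia core, and 41 of the 51 genes have a window. The other starts listed for these genes, 4 in all for Igf2 and 2 for each of the rest, are not shown.

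Pgf encodes placental growth factor, a VEGF family ligand of the receptor FLT1. Its signals in differentiated cells were 5.32, 5.35 and 5.38 in D1D2KO, against 6.70, 6.72 and 6.95 in WT. Undifferentiated samples had Pgf at 5.14, 4.88 and 5.03 in D1D2KO, against 5.28, 5.44 and 5.34 in WT. All 3 differentiated WT samples lay above the other 9, and only they exceeded the median signal of every array. Pgf rose by 0.33 (SE 0.09) in D1D2KO cells and by 1.44 (SE 0.09, 2.71-fold) in WT cells, and the responses differed by -1.10 (SE 0.13; limma, adjusted p = 0.000473). In differentiated cells the D1D2KO signal was 2.71-fold lower (log2 difference -1.44, adjusted p = 3.75e-08), and in undifferentiated cells the difference was -0.33 (adjusted p = 0.0353). The D1D2KO rise missed the threshold without undifferentiated D1D2KO replicate 2 (adjusted p = 0.0527). The undifferentiated difference missed it without undifferentiated D1D2KO replicate 2 or 3 or undifferentiated WT replicate 1, 2 or 3 (adjusted p from 0.0538 to 0.158) and with the replicate number as a block (0.0521). Without detection calls, the Pgf signals under the array medians cannot be told from background, so the fold is one of signal. The 5 genes with the closest pattern over the 12 samples were Ifi207 (Pearson r = 0.981), Reg1 (0.967), Reg3g (0.964), Gfpt2 (0.952) and Uhrf2 (0.944); this describes 12 samples in 4 groups, all from the same arrays.

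Vegfa, the main ligand that drives blood vessel growth, had signals of 9.85, 9.73 and 9.84 in differentiated D1D2KO cells, against 7.44, 7.59 and 7.50 undifferentiated. Differentiated WT cells had Vegfa at 9.75, 9.67 and 9.85, against 8.01, 7.99 and 7.995 undifferentiated. Each genotype's states were far apart, the differentiated samples of the genotypes overlapped, and undifferentiated D1D2KO samples all lay below WT. The rise was 2.30 (SE 0.08, 4.91-fold; adjusted p = 4.74e-13) in D1D2KO and 1.76 (SE 0.08, 3.39-fold; adjusted p = 2.14e-11) in WT cells, a difference in response of 0.53 (SE 0.11; adjusted p = 0.0214). Undifferentiated D1D2KO cells differed from WT by -0.49 (SE 0.08; adjusted p = 0.00158), and differentiated cells by 0.05, with a 95% confidence interval of -0.12 to 0.21 (adjusted p = 0.713). The call of the difference in response ended without differentiated D1D2KO replicate 1, undifferentiated D1D2KO replicate 1 or 3, or undifferentiated WT replicate 1, 2 or 3 (adjusted p from 0.0508 to 0.0766), and with the replicate block (0.0541), while the undifferentiated difference was called in all alternatives tried.

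Vegfa is a textbook target of hypoxia-inducible factors, and 14 further genes known as such targets were read beside it. All 14 rose on differentiation in D1D2KO cells (median 1.35) and 13 in WT cells (median 1.05). Of all genes, 15.4% were called higher in D1D2KO and 14.7% in WT differentiation. Undifferentiated D1D2KO cells had 12 of the 14 lower than WT (median -0.51), against 3.62% of all genes called lower there. In differentiated cells 3 of the 14 were called, 1 higher and 2 lower (21.4%, against 13.7% of all genes). The response was larger in D1D2KO for 4 of the 14 (28.6%, against 0.747% of all genes called higher). These were the prolyl hydroxylase Egln3 (1.82, SE 0.17), the mitophagy gene Bnip3 (1.54, SE 0.17), the glycolytic regulator Pfkfb3 (1.00, SE 0.13) and the mitochondrial protein gene Higd1a (0.68, SE 0.15). Oxygen was not among the labelled conditions, and the part of this group in the Vegfa values was not tested.

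**Figure D2:**
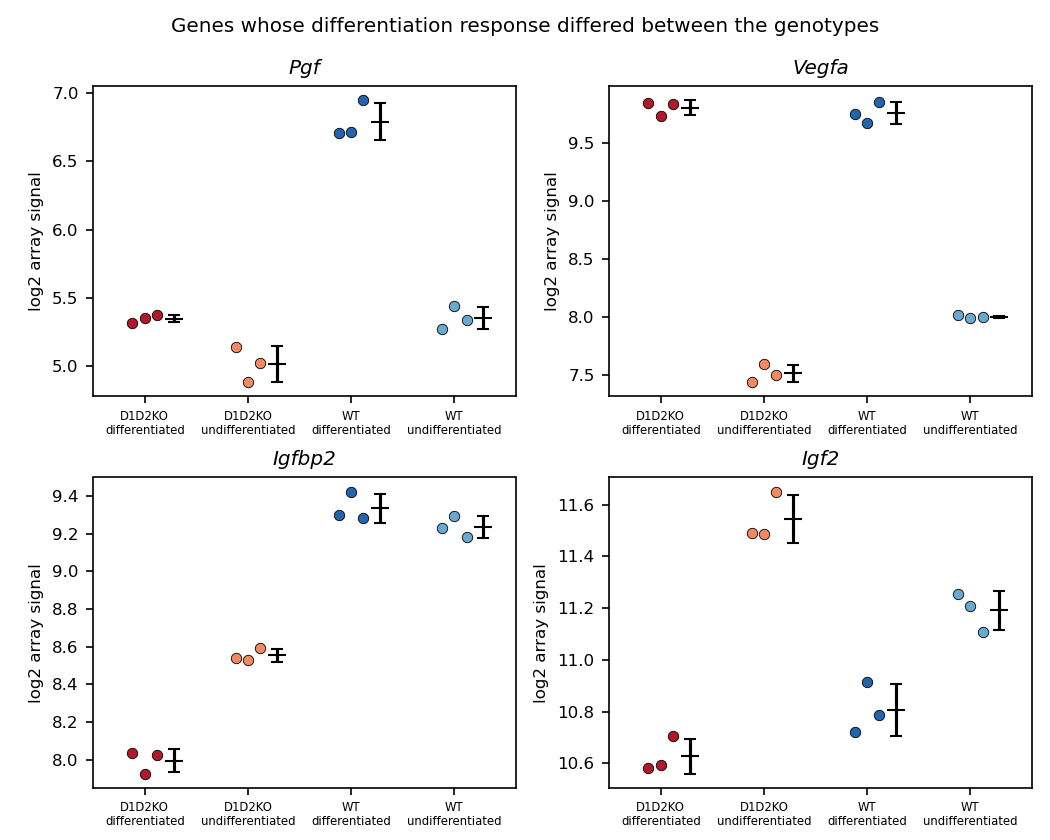
log2 array signal (vertical axes) of Pgf, Vegfa, Igfbp2 and Igf2 in the 4 groups (horizontal axes); points are samples, bars the mean and SD of 3. Pgf stands out in differentiated WT cells (6.70 to 6.95), Vegfa is lowest in undifferentiated D1D2KO cells (7.44 to 7.59), Igfbp2 is lower in both D1D2KO groups, and Igf2 is highest in undifferentiated D1D2KO cells.

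Among the other VEGF ligands, Vegfb, a ligand of FLT1 abundant in oxidative tissues, rose, and the lymphatic growth factors Vegfc and Vegfd fell in both genotypes. Vegfb had 8.43, 8.36 and 8.56 in differentiated D1D2KO cells, against 7.64, 7.74 and 7.80 undifferentiated, and 8.005, 8.26 and 8.07 in differentiated WT cells, against 7.52, 7.58 and 7.58 undifferentiated. It rose by 0.72 in D1D2KO and 0.55 in WT cells (SE 0.09 each) and was higher by 0.34 in differentiated D1D2KO than WT cells (adjusted p = 0.018), a call that ended without differentiated D1D2KO replicate 3 (0.0609) or differentiated WT replicate 1 (0.0526) and with only the groups compared in the fit (0.0732). Vegfc had 7.16, 7.12 and 7.43 in differentiated D1D2KO cells, against 8.28, 8.27 and 8.40 undifferentiated, and 7.37, 7.67 and 7.31 in differentiated WT cells, against 8.14, 8.22 and 8.10 undifferentiated. No differentiated Vegfc sample reached an undifferentiated one, and the differences were -1.08 in D1D2KO and -0.70 in WT (SE 0.10). Vegfd stood at 10.62, 10.79 and 10.92 in differentiated D1D2KO cells, against 11.41, 11.48 and 11.44 undifferentiated, and at 10.77, 11.07 and 10.84 in differentiated WT cells, against 11.28, 11.27 and 11.26 undifferentiated. Its differences were -0.67 in D1D2KO and -0.38 in WT cells (SE 0.09), with no overlap between states. All 5 VEGF ligands were therefore called in both genotypes, 3 higher and 2 lower. Of all genes, 36.7% were called in D1D2KO and 34.1% in WT differentiation.

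Of 5 receptors and coreceptors of VEGF outside the 51 genes, the same 3 fell in each genotype and Flt1 rose in WT cells. These calls were 60% of the 5 in D1D2KO and 80% in WT cells, against 36.7% and 34.1% of all genes. Kdr, the main signalling receptor, fell by 0.95 in D1D2KO and 0.97 in WT cells (SE 0.11), and the coreceptor Nrp2 fell by 1.14 in D1D2KO and 1.08 in WT cells (SE 0.08). Flt1, the receptor of PGF, VEGFA and VEGFB, had a difference of 0.15 in D1D2KO cells (adjusted p = 0.175, not called) and rose by 0.53 in WT cells (adjusted p = 4.47e-05). It was lower in differentiated D1D2KO than WT cells (-0.41, adjusted p = 0.00336), but the difference in response was not called (-0.39, adjusted p = 0.113). Of 8 endothelial markers, 1 rose and 1 fell on differentiation in D1D2KO cells (25%, against 36.7% of all genes). In WT cells 1 rose and 2 fell (37.5%, against 34.1%). The angiopoietin receptor gene Tek fell in both, by 1.04 in D1D2KO and 0.78 in WT cells (SE 0.10). Between genotypes 3 of the 8 were higher in differentiated D1D2KO cells (37.5%, against 6.25% of all genes called higher). In undifferentiated cells 2 were higher and 1 lower (37.5%, against 8.02% of all genes called). Pecam1 and Cdh5 were called in no comparison. The part of these markers in the VEGF results was not tested.

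The IGF ligands and receptors fell together in both genotypes. Igf2, the fetal IGF, had 10.58, 10.59 and 10.70 in differentiated D1D2KO cells, against 11.49, 11.49 and 11.65 undifferentiated. WT samples had Igf2 at 10.72, 10.92 and 10.79 differentiated, against 11.26, 11.21 and 11.11 undifferentiated. Undifferentiated D1D2KO samples were above all others and differentiated D1D2KO samples below all others. Igf2 differed by -0.92 in D1D2KO and -0.38 in WT cells (SE 0.08), a difference in response of -0.53 (SE 0.12; adjusted p = 0.0338). It was higher by 0.35 in undifferentiated D1D2KO than WT cells (adjusted p = 0.0205), and in differentiated cells the difference of -0.18 was not called (adjusted p = 0.152). These genotype results rest on few samples: the difference in response missed the threshold without any 1 of 9 samples, all but differentiated D1D2KO replicate 3 and differentiated WT replicates 1 and 3 (adjusted p from 0.0571 to 0.105). The undifferentiated difference missed it without undifferentiated D1D2KO replicate 3 (0.113) or undifferentiated WT replicate 2 (0.0767).

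Igf1, the main growth-hormone-dependent IGF, which macrophages also make, had 9.69, 9.85 and 9.95 in differentiated D1D2KO cells, against 10.64, 10.56 and 10.57 undifferentiated, and 9.93, 10.05 and 9.93 in differentiated WT cells, against 10.36, 10.37 and 10.49 undifferentiated. The states did not overlap, and the differences were -0.76 in D1D2KO and -0.44 in WT (SE 0.08). Igf1r, the signalling receptor of both ligands, had 7.20, 7.20 and 7.18 in differentiated D1D2KO cells, against 8.27, 8.20 and 8.27 undifferentiated. In WT it had 7.78, 7.69 and 7.53 differentiated, against 8.53, 8.31 and 8.24 undifferentiated. Igf1r fell by 1.05 in D1D2KO and 0.70 in WT cells (SE 0.09) and was lower in differentiated D1D2KO than in every differentiated WT sample (-0.47, adjusted p = 0.00262), while the difference in response was not called (-0.36, adjusted p = 0.231). Igf2r, the mannose-6-phosphate receptor that clears IGF2, had 8.98, 8.88 and 8.65 in differentiated D1D2KO cells, against 9.45, 9.47 and 9.48 undifferentiated, and 8.91, 8.73 and 8.82 in differentiated WT cells, against 9.40, 9.28 and 9.24 undifferentiated. It fell by 0.63 in D1D2KO and 0.49 in WT cells (SE 0.09), again without overlap.

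Of the 7 IGF-binding proteins, 5 fell in D1D2KO cells (71.4%, against 21.2% of all genes lower), and in WT cells 4 fell and 1 rose (against 19.4% of all genes lower and 14.7% higher). Igfbp2, a binding protein of fetal tissue that preadipocytes secrete, had 8.03, 7.93 and 8.03 in differentiated D1D2KO cells, against 8.54, 8.53 and 8.60 undifferentiated. WT cells had Igfbp2 at 9.30, 9.42 and 9.28 differentiated, against 9.23, 9.29 and 9.18 undifferentiated. The 6 D1D2KO samples all lay below the 6 WT samples, and only the WT states overlapped. Igfbp2 was 2.53-fold lower in differentiated D1D2KO than WT cells (-1.34, SE 0.08; adjusted p = 8.46e-09) and lower in undifferentiated cells as well (-0.68, adjusted p = 3.73e-05). Differentiation changed it by -0.56 in D1D2KO (adjusted p = 1.23e-05), and in WT the difference of 0.10 was not called (adjusted p = 0.35); the difference in response was -0.66 (SE 0.11; adjusted p = 0.00556). These 4 calls of Igfbp2 were kept in all alternatives tried.

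Igfbp5, which is abundant in mesenchymal cells and binds to matrix, had 8.76, 8.64 and 8.54 in differentiated D1D2KO cells, against 10.25, 10.11 and 10.29 undifferentiated. The WT samples had Igfbp5 at 8.16, 8.06 and 7.97 differentiated, against 9.93, 9.78 and 9.82 undifferentiated. It fell by 1.57 in D1D2KO and 1.78 in WT cells (SE 0.09), and D1D2KO lay above WT in every sample of each state, by 0.58 differentiated (adjusted p = 0.000403) and 0.37 undifferentiated (adjusted p = 0.0187). The undifferentiated call ended without undifferentiated D1D2KO replicate 1 (0.0678) or 3 (0.0976) or undifferentiated WT replicate 2 (0.0971). Igfbp6, which prefers IGF2, had 9.49, 9.29 and 9.21 in differentiated D1D2KO cells, against 10.71, 10.64 and 10.77 undifferentiated, and 9.53, 9.35 and 9.32 in differentiated WT cells, against 10.56, 10.54 and 10.53 undifferentiated. It fell by 1.38 in D1D2KO and 1.14 in WT cells (SE 0.09) without overlap of the states, and was not called between genotypes.

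Igfbp3, the main carrier of IGFs in blood, had 10.29, 10.22 and 10.23 in differentiated D1D2KO cells, against 11.04, 11.001 and 11.09 undifferentiated, and 10.12, 10.32 and 10.12 in differentiated WT cells, against 10.89, 10.82 and 10.81 undifferentiated. It fell by 0.80 in D1D2KO and 0.65 in WT cells (SE 0.08), and Igfbp4, a target of the protease PAPPA, fell by 0.68 in D1D2KO and 0.57 in WT cells (SE 0.10). Igfbp7, a low-affinity member, had 10.08, 10.17 and 10.26 in differentiated D1D2KO cells, against 10.16, 10.18 and 10.19 undifferentiated, and 10.52, 10.89 and 10.44 in differentiated WT cells, against 10.27, 10.21 and 10.20 undifferentiated. Its difference was -0.01 in D1D2KO cells, not called, and it rose by 0.39 in WT cells (adjusted p = 0.0063). It was lower in differentiated D1D2KO than WT cells (-0.44, adjusted p = 0.00968), but the difference in response was not called (-0.39, adjusted p = 0.251). The genotype call of Igfbp7 ended with only the groups compared in the fit (0.0505). The last of the 7, Igfbp1, a liver product, lay under the median of every array in all groups and was called in no comparison.

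Elsewhere on the IGF axis, 13 further genes were measured of 15 listed. On differentiation 5 rose and 8 fell in D1D2KO cells, and 4 rose and 7 fell in WT cells. These calls were 100% of the 13 in D1D2KO and 84.6% in WT cells, against 36.7% and 34.1% of all genes. The insulin receptor Insr rose by 1.44 in D1D2KO and 1.15 in WT cells (SE 0.08), opposite in sign to Igf1r. Pappa, a protease that frees IGF from IGFBP4, fell by 1.29 in D1D2KO and 0.96 in WT cells (SE 0.09), and the adaptor Irs1 fell by 0.85 in D1D2KO and 0.57 in WT cells (SE 0.09). Between genotypes 2 of the 13 were called in differentiated cells, the protease Htra1 (-0.32, adjusted p = 0.0223) and Insr (0.28, adjusted p = 0.0378). This is 15.4% of the list, near the 13.7% of all genes. In undifferentiated cells 1 was called, Irs1 (0.39, adjusted p = 0.0166), which is 7.69% of the list, near the 8.02% of all genes. For the difference between responses limma called 0 at the adjusted threshold and 3 at an unadjusted p under 0.05.

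**Figure D3:**
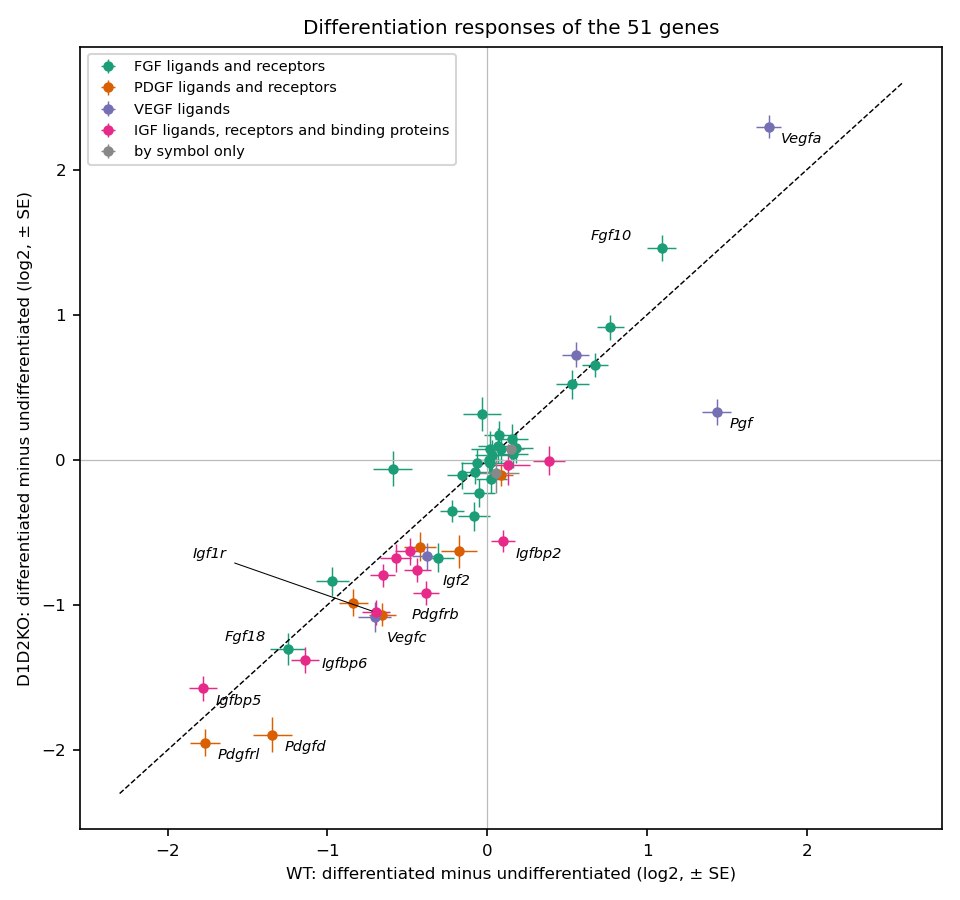
Difference between differentiated and undifferentiated cells (log2, ± SE of the limma fit) in D1D2KO (vertical axis) against WT (horizontal axis) for the 51 genes, coloured by family; the dashed line marks equal responses. Most genes lie near the line, with Pgf (0.33 in D1D2KO, 1.44 in WT) farthest below it.

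Of the 7 ligand and receptor genes of the PDGF system, all 3 receptor genes and 3 of 4 ligands fell on differentiation in D1D2KO cells, and 2 receptor genes and 3 ligands in WT cells. These were 85.7% of the 7 in D1D2KO cells, against 21.2% of all genes lower, and 71.4% in WT cells, against 19.4%. Pdgfra, the receptor that marks fibroblasts and adipocyte progenitors, had 10.28, 10.27 and 9.87 in differentiated D1D2KO cells, against 10.79, 10.70 and 10.84 undifferentiated. In WT samples it had 10.85, 10.51 and 10.61 differentiated, against 10.90, 10.84 and 10.78 undifferentiated. Every differentiated D1D2KO sample lay below all the others, while the WT states overlapped. Pdgfra fell by 0.63 in D1D2KO (SE 0.11; adjusted p = 0.000197), the WT difference was -0.18 (adjusted p = 0.248), and differentiated D1D2KO cells were at -0.52 from WT (adjusted p = 0.00716). The difference in response was -0.45 (SE 0.16) and was not called (adjusted p = 0.221).

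Pdgfrb, the receptor of pericytes and mesenchymal cells, had 8.71, 8.62 and 8.47 in differentiated D1D2KO cells, against 9.68, 9.61 and 9.71 undifferentiated, and 9.08, 9.03 and 8.92 in differentiated WT cells, against 9.73, 9.62 and 9.66 undifferentiated. It fell by 1.07 in D1D2KO and 0.66 in WT cells (SE 0.08). Differentiated D1D2KO samples lay below differentiated WT samples (-0.41, adjusted p = 0.00425), the undifferentiated genotypes overlapped, and the difference in response was -0.41 (adjusted p = 0.102). Pdgfrl, a receptor-like gene without a kinase domain, had 7.05, 7.05 and 6.75 in differentiated D1D2KO cells, against 8.96, 8.89 and 8.85 undifferentiated, and 6.90, 7.11 and 6.97 in differentiated WT cells, against 8.68, 8.77 and 8.83 undifferentiated. It fell by 1.95 in D1D2KO, the largest fall of the 51 genes there, and by 1.77 in WT cells (SE 0.09), and was not called between genotypes.

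Pdgfd, a ligand of PDGFRB, had 7.34, 7.68 and 7.08 in differentiated D1D2KO cells, against 9.33, 9.29 and 9.16 undifferentiated. WT cells showed Pdgfd at 7.83, 7.77 and 7.91 differentiated, against 9.03, 9.23 and 9.28 undifferentiated. It fell by 1.89 in D1D2KO and 1.34 in WT cells (SE 0.12), and differentiated D1D2KO samples lay below WT (-0.47, adjusted p = 0.0193), a call that ended without differentiated D1D2KO replicate 1 (0.0516) or 3 (0.0779) or differentiated WT replicate 3 (0.0558). The Pdgfd call also ended after quantile normalisation (0.05), with only the groups compared (0.0576) and with array weights (-0.29, adjusted p = 0.121). Pdgfc, a ligand of PDGFRA, had 7.20, 7.31 and 7.14 in differentiated D1D2KO cells, against 8.20, 8.32 and 8.08 undifferentiated, and 7.81, 7.94 and 7.72 in differentiated WT cells, against 8.66, 8.76 and 8.56 undifferentiated. It fell by 0.98 in D1D2KO and 0.84 in WT cells (SE 0.09), with D1D2KO below WT in each state, at differences of -0.61 differentiated (adjusted p = 0.000378) and -0.46 undifferentiated (adjusted p = 0.00699). The undifferentiated call ended without undifferentiated D1D2KO replicate 3 (0.0518) or undifferentiated WT replicate 2 (0.0529). Pdgfa, the classical PDGFRA ligand, fell by 0.60 in D1D2KO and 0.42 in WT cells (SE 0.10). Pdgfb, made by endothelial cells and platelets, was not called on differentiation. Its signals were 6.31, 6.34 and 6.48 in undifferentiated D1D2KO cells, against 6.12, 6.06 and 6.07 in WT, a difference of 0.29 (adjusted p = 0.0282) without overlap. That call ended whichever of the 6 undifferentiated samples was left out (0.0501 to 0.148), with each array centred on its median (0.0586) and with the replicate block (0.0507).

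**Figure D4:**
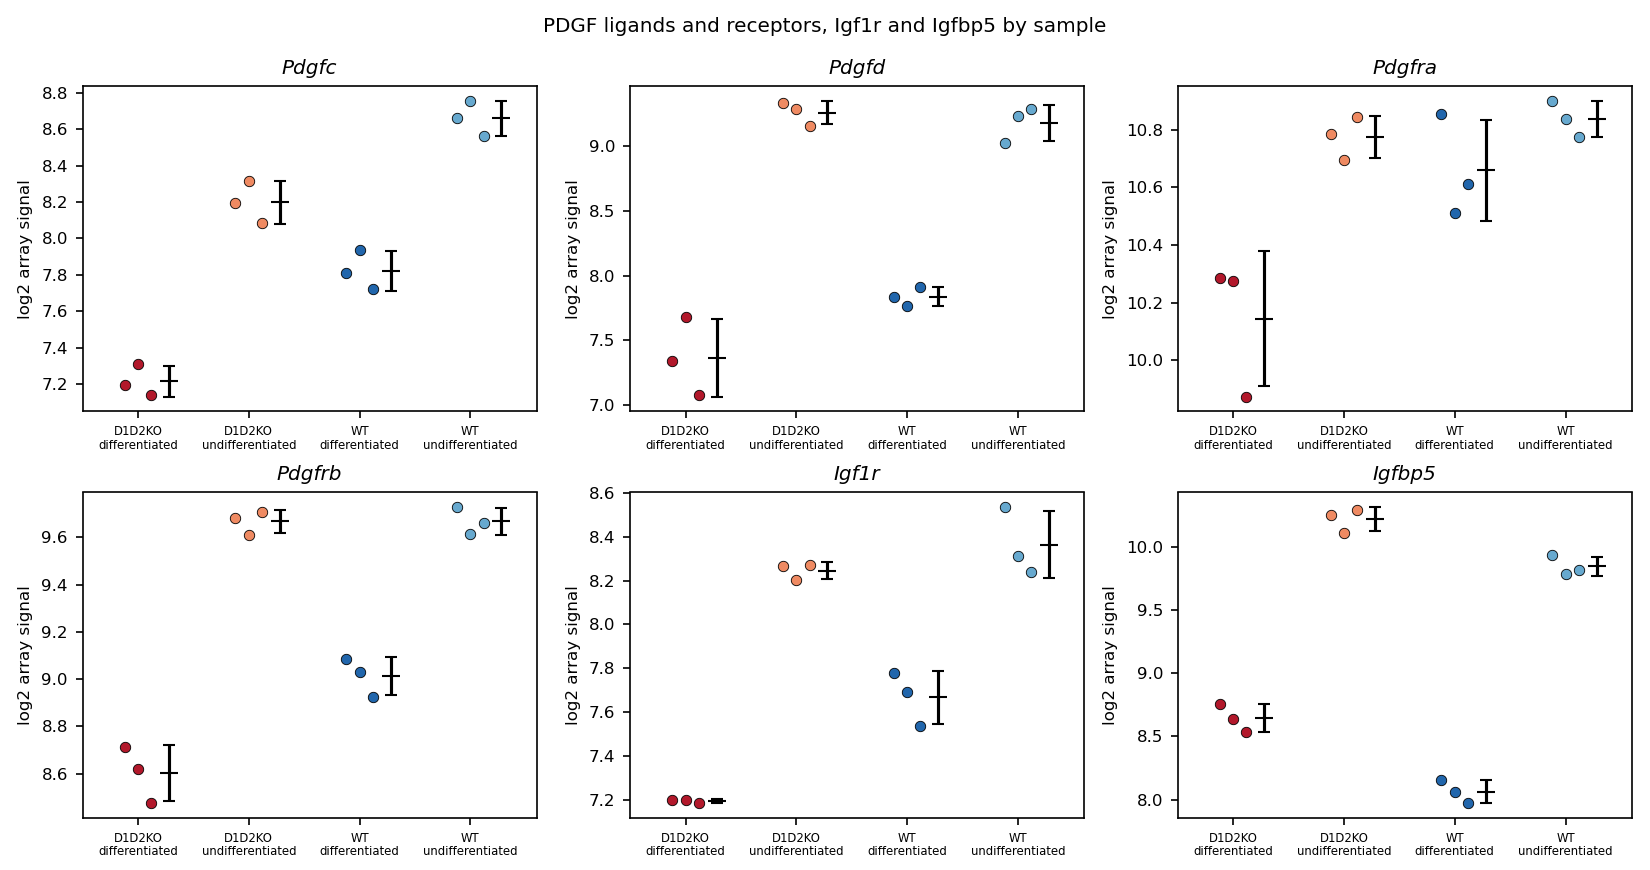
log2 array signal (vertical axes) of Pdgfc, Pdgfd, Pdgfra, Pdgfrb, Igf1r and Igfbp5 in the 4 groups (horizontal axes); points are samples, bars the mean and SD of 3. In the first 5 panels differentiated D1D2KO cells are the lowest group, while Igfbp5 is lowest in differentiated WT cells (7.97 to 8.16).

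Beside these genotype differences, 7 of 8 markers of smooth muscle and pericytes, cells in which Pdgfrb is prominent, had lower signals in D1D2KO cells, differentiated or not, and none was higher. Their mean signal was 7.35 to 7.45 in differentiated D1D2KO cells, against 8.78 to 8.97 in differentiated WT cells, and 7.92 to 8.14 in undifferentiated D1D2KO cells, against 9.05 to 9.13 in undifferentiated WT cells. Of all genes, 7.42% were called lower in differentiated and 3.62% in undifferentiated D1D2KO cells. Fibroblast markers were lower in differentiated D1D2KO cells for 3 of 8. In undifferentiated cells limma called 0 fibroblast markers at the adjusted threshold and 0 at an unadjusted p under 0.05. Adipocyte markers were higher in differentiated D1D2KO cells for 5 of 7, against 6.25% of all genes called higher. In undifferentiated D1D2KO cells 2 of the 7 were lower, Fabp4 (-1.20) and Adipoq (-0.97), and Lep was higher (0.56, against 4.40% of all genes higher). A larger response in D1D2KO was called for 3 of the 7, against 0.747% of all genes. The part of these marker lists in the PDGF, VEGF and IGF differences was not tested.

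On differentiation, FGF ligands were called at about the share of all genes. In each genotype 4 of 22 rose and 4 fell on differentiation (36.4%, against 36.7% of all genes in D1D2KO and 34.1% in WT cells), and 9 of the 22 had all group means under the median of every array, as did 39.3% of all genes. Between genotypes 6 of the 22 were called in differentiated cells, 4 higher and 2 lower in D1D2KO (27.3%, against 13.7% of all genes). In undifferentiated cells 3 were called, 2 higher and 1 lower (13.6%, against 8.02%). These counts include the intracellular members Fgf11, Fgf12, Fgf13 and Fgf14, which are ligands by symbol only. Fgf11, Fgf13 and Fgf14 were among the 4 rises in each genotype, and Fgf12 was among the 4 WT falls. Fgf12 and Fgf13 were among the 4 higher in differentiated D1D2KO cells. The ligand Fgf10, which acts on epithelial FGFR2 and is known to promote fat formation, had 8.09, 8.03 and 7.83 in differentiated D1D2KO cells, against 6.45, 6.61 and 6.51 undifferentiated, and 7.86, 8.03 and 7.82 in differentiated WT cells, against 6.81, 6.89 and 6.73 undifferentiated. It rose 2.75-fold in D1D2KO (1.46, SE 0.09; adjusted p = 9.76e-10) and 2.13-fold in WT cells (1.09), and the difference in response was not called (0.37, adjusted p = 0.223). Fgf18, known for its part in bone and cartilage, had 6.89, 6.72 and 7.27 in differentiated D1D2KO cells, against 8.23, 8.30 and 8.27 undifferentiated, and 6.83, 6.94 and 6.97 in differentiated WT cells, against 8.13, 8.23 and 8.12 undifferentiated. It fell by 1.31 in D1D2KO and 1.25 in WT cells (SE 0.11), and neither gene's states overlapped in either genotype.

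Fgf13, an intracellular family member that binds sodium channels, had 6.71, 6.69 and 6.79 in differentiated D1D2KO cells, against 5.79, 5.84 and 5.82 undifferentiated, and 6.25, 6.21 and 6.44 in differentiated WT cells, against 5.42, 5.67 and 5.49 undifferentiated. It rose by 0.91 in D1D2KO and 0.77 in WT cells (SE 0.09) and was higher in differentiated D1D2KO cells by 0.43 (adjusted p = 0.00425), with no overlap. Of the other intracellular members, Fgf11 and Fgf14, both under the array medians, rose by 0.52 and 0.65 in D1D2KO and by 0.53 and 0.67 in WT cells. Fgf16 fell by 0.84 in D1D2KO and 0.97 in WT cells (SE 0.10). Its mean signals were 4.48 differentiated and 5.31 undifferentiated in D1D2KO cells, and 4.66 and 5.63 in WT cells. Only undifferentiated WT cells exceeded the lowest array median (5.61), and the lower Fgf16 signals cannot be told from background. Fgf7, the keratinocyte growth factor that stroma makes for epithelium, had 8.49, 8.55 and 8.53 in differentiated D1D2KO cells, against 9.21, 9.24 and 9.14 undifferentiated, and 8.78, 9.16 and 8.73 in differentiated WT cells, against 9.10, 9.28 and 9.21 undifferentiated. It fell by 0.67 in D1D2KO and 0.31 in WT cells, where the states overlapped, and was lower in differentiated D1D2KO than WT cells (-0.36, adjusted p = 0.0266). The WT fall missed the threshold without differentiated WT replicate 1 or 3 or undifferentiated WT replicate 2 or 3 (adjusted p from 0.0574 to 0.122), and the genotype difference without differentiated D1D2KO replicate 1, 2 or 3 or differentiated WT replicate 2 (0.0536 to 0.106). With only the groups compared neither was called (0.0633 for the WT fall and 0.0835 between genotypes), and the genotype call of Fgf7 also ended after quantile normalisation (0.0734).

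Smaller genotype differences, each without overlap, were found for other FGF ligands. In differentiated cells Fgf22 had 6.34, 6.20 and 6.49 in D1D2KO, against 6.14, 5.93 and 5.73 in WT (0.41, adjusted p = 0.0157), and in undifferentiated cells 6.27, 6.20 and 6.32 in D1D2KO, against 5.84, 5.80 and 5.89 in WT (0.42, adjusted p = 0.0222). Fgf3 had 5.35, 5.23 and 5.31 in differentiated D1D2KO, against 5.09, 4.76 and 4.99 in WT cells (0.35, adjusted p = 0.0259), Fgf9 had 6.48, 6.50 and 6.82 in D1D2KO, against 6.95, 7.07 and 6.83 in WT cells (-0.35, adjusted p = 0.0281), and Fgf12 had 4.71, 4.58 and 5.06 in D1D2KO, against 4.29, 4.40 and 4.48 in WT cells (0.39, adjusted p = 0.0424). Fgf12 also fell in WT differentiation (-0.59, adjusted p = 0.000977). All group means of Fgf3 and Fgf12 lay under the median of every array. Their signals cannot be told from background, so these are differences of signal only. In undifferentiated cells Fgf2, the basic FGF, had 7.50, 7.53 and 7.42 in D1D2KO, against 7.83, 7.92 and 7.70 in WT (-0.33, adjusted p = 0.0373), and Fgf5, a regulator of the hair cycle, had 6.24, 6.20 and 6.38 in D1D2KO, against 5.83, 5.84 and 5.97 in WT (0.39, adjusted p = 0.0273). Fgf5 fell on differentiation in D1D2KO cells (-0.39, adjusted p = 0.00461). Each of these genotype calls ended when certain samples were left out. The differentiated call of Fgf22 ended without differentiated D1D2KO replicate 3 (0.0618) or WT replicate 3 (0.0606). The undifferentiated calls ended without undifferentiated D1D2KO replicate 1 or 3 or WT replicate 1 or 2 for Fgf22 (0.0680 to 0.101) and Fgf5 (0.0672 to 0.134). For Fgf2 they ended without undifferentiated D1D2KO replicate 1, 2 or 3 or WT replicate 1 or 2 (0.0619 to 0.169). In differentiated cells they ended without D1D2KO replicate 1 or 3 or WT replicate 2 for Fgf3 (0.0585 to 0.112) and without D1D2KO replicate 1 or 2 or WT replicate 2 for Fgf9 (0.0911 to 0.112). For Fgf12 the call ended without differentiated D1D2KO replicate 1 or 3, undifferentiated D1D2KO replicate 2, any 1 of the 3 differentiated WT samples or undifferentiated WT replicate 2 (0.0513 to 0.168). Quantile normalisation also ended the calls of Fgf2 (0.0972), Fgf3 (0.0542), Fgf9 (0.0668) and Fgf12 (0.0997). Among the differentiated calls, the fit of only the groups compared ended those of Fgf3 (0.0709), Fgf9 (0.0903), Fgf12 (0.0779) and Fgf22 (0.0651). Array weights ended those of Fgf3 (0.0587) and Fgf12 (0.24, adjusted p = 0.196), and centring on array medians that of Fgf12 (0.0592).

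The remaining FGF ligands Fgf1, Fgf4, Fgf6, Fgf8, Fgf15, Fgf17, Fgf20, Fgf21 and Fgf23 were called in no comparison. With the replicate block Fgf8 was higher in undifferentiated D1D2KO than WT cells (0.33, adjusted p = 0.0406, against 0.0634 without the block). Fgf21, the fasting hormone that acts on fat through FGFR1 and beta-Klotho, differed by -0.09 in D1D2KO and -0.08 in WT cells (95% confidence intervals -0.26 to 0.09 in D1D2KO and -0.26 to 0.10 in WT cells). Fgf6, with group means of 3.45 to 3.71, was the only gene of the 51 under the lower quartile of every array in all groups, where 16.1% of all genes lay. Fgf2os and Fgfr1op2 were called in no comparison either. Fgfr1op2 had 8.70, 8.74 and 8.93 in differentiated D1D2KO cells, against 8.68, 8.76 and 8.70 undifferentiated, and 8.97, 8.99 and 8.85 in differentiated WT cells, against 8.77, 8.77 and 8.82 undifferentiated.

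FGF receptors moved little. Fgfr1, the main FGF receptor of mesenchymal cells, had 9.16, 9.09 and 9.06 in differentiated D1D2KO cells, against 9.47, 9.39 and 9.52 undifferentiated, and 9.09, 9.14 and 8.99 in differentiated WT cells, against 9.34, 9.30 and 9.25 undifferentiated. It fell by 0.36 in D1D2KO (adjusted p = 0.00117) and 0.22 in WT cells (adjusted p = 0.0343), without overlap. The WT call ended without differentiated WT replicate 1 or 3 or undifferentiated WT replicate 1 or 2 (0.0566 to 0.129) and with only the groups compared (0.0706). Fgfr2 rose by 0.31 in D1D2KO cells (adjusted p = 0.0476), a call that ended without differentiated D1D2KO replicate 1 or 2, undifferentiated D1D2KO replicate 1, 2 or 3, differentiated WT replicate 3 or undifferentiated WT replicate 2 or 3 (0.0513 to 0.185). Fgfr3 and Fgfr4 were called in no comparison.

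Of 14 FGF coreceptors and heparan sulphate carriers outside the 51 genes, 2 rose and 8 fell on differentiation in D1D2KO cells. In WT cells 2 rose and 6 fell. These calls were 71.4% of the 14 in D1D2KO and 57.1% in WT cells, against 36.7% and 34.1% of all genes. Klb, the beta-Klotho coreceptor of FGF21, had signals of 9.31, 9.17 and 8.81 in differentiated D1D2KO cells, against 4.49, 4.29 and 4.51 undifferentiated, and 8.87, 8.14 and 8.96 in differentiated WT cells, against 4.29, 4.23 and 4.50 undifferentiated. Its signal rose by 4.67 in D1D2KO and 4.32 in WT cells (SE 0.17). The undifferentiated signals of Klb lay under the array medians and cannot be told from background, so these are differences of signal only. Fgfrl1, a receptor without a kinase domain, rose by 0.81 in D1D2KO and 0.89 in WT cells (SE 0.08). The syndecan Sdc2 fell by 1.25 in D1D2KO and 0.75 in WT cells (SE 0.08), a difference in response of -0.50 (adjusted p = 0.0434). It was the only gene of the 14 called for the difference in response (7.14%, against 1.46% of all genes). Between genotypes 4 of the 14 were called in differentiated cells, 2 higher and 2 lower in D1D2KO (28.6%, against 13.7% of all genes). In undifferentiated cells 1 was called, higher in D1D2KO (7.14%, against 8.02% of all genes).

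**Figure D5:**
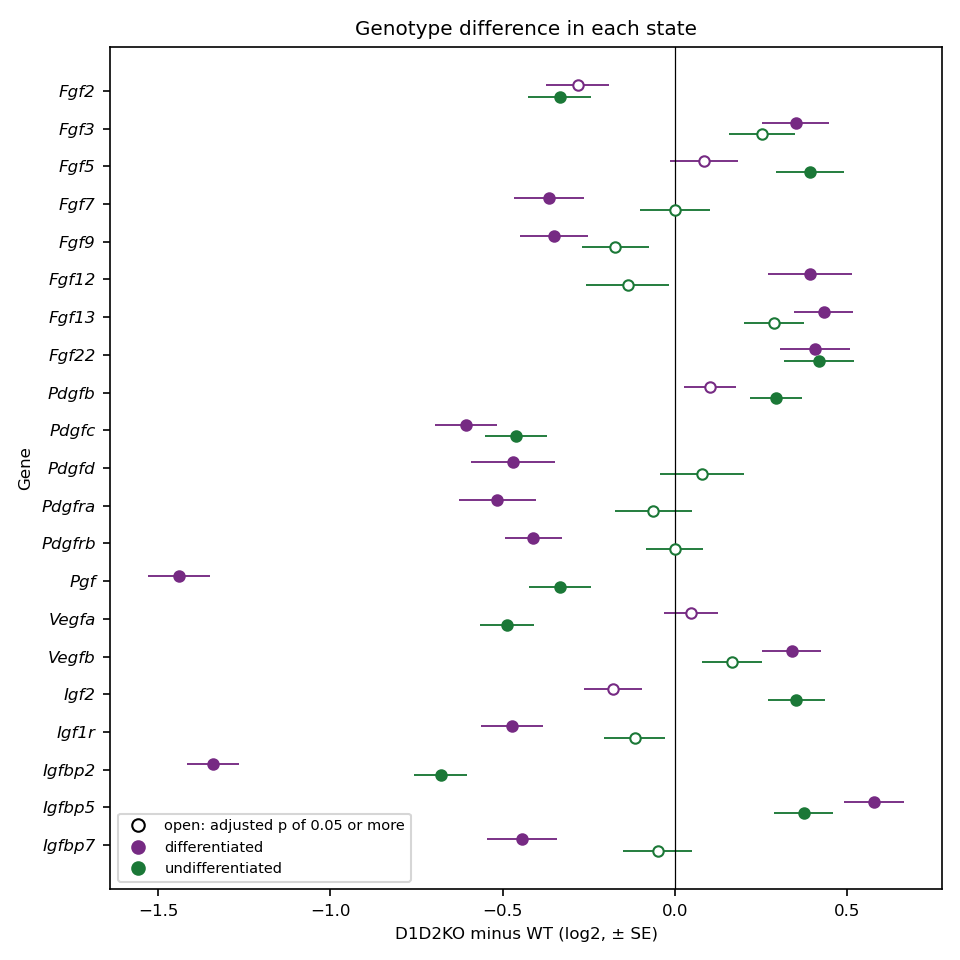
Difference between D1D2KO and WT cells (horizontal axis, log2, ± SE of the limma fit) for the 21 of 51 genes called in at least 1 state (vertical axis); purple marks differentiated and green undifferentiated cells, and open symbols did not pass the test. Pgf and Igfbp2 lie farthest below 0 in differentiated cells, and only Igfbp5 and Fgf22 are called higher in both states.

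Downstream of these receptors, 17 feedback and immediate response genes of receptor tyrosine kinase signalling showed 3 rises and 9 falls in D1D2KO differentiation. In WT there were 4 rises and 6 falls. These calls were 70.6% of the 17 in D1D2KO and 58.8% in WT cells, against 36.7% and 34.1% of all genes. The phosphatase Dusp4 rose by 2.21 in D1D2KO and 1.82 in WT cells (SE 0.21). Spry4, an inhibitor of the pathway, rose by 1.20 in D1D2KO and 0.66 in WT cells (SE 0.15), while its relatives Spry1 and Spry2 fell in both. The transcription factor gene Fosl1 rose by 1.04 in D1D2KO and 1.23 in WT cells (SE 0.15), and Il17rd, an antagonist of FGF signalling, fell by 1.40 in D1D2KO and 1.22 in WT cells (SE 0.08). Of 16 measured adaptor and kinase genes of 22 listed, 2 rose in each genotype, and 8 fell in D1D2KO and 6 in WT cells. These were 62.5% of the 16 in D1D2KO and 50% in WT cells, against the same shares of all genes. Akt2, the AKT kinase of insulin-stimulated glucose uptake, rose by 0.96 in D1D2KO and 0.84 in WT cells, while Akt1 fell by 0.68 in D1D2KO and 0.62 in WT cells. Between genotypes 1 gene of each list was called in differentiated cells, both lower in D1D2KO: the immediate early gene Ier3 (-0.86, adjusted p = 5.84e-05) and the adaptor Shc1 (-0.30, adjusted p = 0.0485). These are 5.88% and 6.25% of the lists, against 13.7% of all genes called there in either direction and 7.42% called lower. In undifferentiated cells Ier3 was lower as well (-0.48, adjusted p = 0.0126). It was the only gene of the 17 called there (5.88%, against 8.02% of all genes called and 3.62% called lower).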

How the data were processed

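Total RNA from 12 samples of embryonic fibroblasts, extracted with Trizol per the labels' protocols, was measured on 1-colour mouse arrays with biotin label. The deposited table holds 1 log2 signal per probe set and sample, already summarised by the authors; how they summarised and normalised the scans is not given in the sources used here, and no detection calls were used. Values ran from 1.15 to 14.17, the base 2 was inferred from this range, array medians lay between 5.61 and 5.69, and 0 columns were identical.

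Of 35556 probe sets, 21789 had 1 gene in the platform annotation, 1621 several and 12146 none listed, and the last 2 kinds were not used. For each gene the probe set of highest mean signal was kept, which left 19938 genes, with no filter on low signal. Titles of the samples gave the groups and replicate numbers. 1 linear model on the 4 group means was fitted to all genes with limma 3.58.1 (lmFit, eBayes) in R 4.3.3, and 5 two-sided contrasts were tested with Benjamini-Hochberg adjustment over 19938 genes, called under 0.05. The script was tested on simulated data.

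The 51 genes, the lists of pathway and marker genes and the tests were chosen with earlier results of these data known. Sample values are given for genes called with a log2 difference of at least 1, for those called between genotypes or in the difference between responses, and for the gene with the highest mean of each role. Igf1 met none of these rules, and its sample values were given in addition. Of each further list up to 3 called genes per contrast with the largest change could be named. Spry1, Spry2, Pecam1 and Cdh5, and Higd1a in the difference between responses, fall outside that limit and were named after their values were seen. Of the listed genes, 10 had no probe set of their own and were not analysed here. Promoter windows came from RefSeq (GRCm38.p6), which is not known to be the build behind the array.

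Deviations of samples with equal replicate numbers from their group means were all correlated above 0.1 only between differentiated and undifferentiated D1D2KO cells. The range there was 0.101 to 0.176, against -0.147 to 0.0522 for unequal numbers. This is only a hint of pairing, since the labels do not state it, and the main fit paired no samples. The block alternative used the replicate number within each genotype for the differentiation contrasts and their difference. Between genotypes it used the number within each state. Equal numbers were correlated there at -0.233 to 0.117 in differentiated and -0.0146 to 0.184 in undifferentiated cells, so that block rests on no shown pairing. Alternatives were quantile normalisation, centring on array medians, restriction to genes above the median signal, averaging the probe sets of a gene, only the groups compared, trended robust eBayes, array weights, a block for the replicate number, and omission of each sample in turn.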

Additional observations from a re-analysis of the deposited data

Results flagged for a closer look

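The response to differentiation differed between the genotypes, by the test of the difference itself in limma, for 4 of the 51 genes. The D1D2KO response minus the WT response was -1.10 for Pgf, -0.66 for Igfbp2, -0.53 for Igf2 and 0.53 for Vegfa on the log2 scale. Every response rests on 3 samples per group. Groups of 3 samples were not tested for outlying samples.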

How the results depend on the processing

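No called gene of the 51 changed direction under any alternative tried. Calls were kept under all alternatives for 28 of 30 genes in D1D2KO differentiation, 26 of 28 in WT differentiation, 8 of 16 between genotypes in differentiated cells, 2 of 10 in undifferentiated cells and 2 of 4 in the difference between responses. Leaving out each sample in turn gave 28 to 31, 26 to 28, 10 to 16, 2 to 14 and 2 to 4 called of the 51 in these comparisons. Over all genes it gave 6480 to 7629, 5676 to 7152, 1344 to 2822, 339 to 1967 and 159 to 449. Undifferentiated calls fell to 2 of the 51 without undifferentiated D1D2KO replicate 3 or undifferentiated WT replicate 2, and to 5 without undifferentiated D1D2KO replicate 1 or undifferentiated WT replicate 1; differentiated calls fell to 10 without differentiated D1D2KO replicate 3.

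With only the groups compared in the fit, which has fewer residual degrees of freedom, 8 of the 51 and 1184 of all genes were called between genotypes in differentiated cells, and 16 and 2597 in undifferentiated cells. This setting gives no separate value for the difference between responses. Array weights called 22 of the 51 and 4224 of all genes in undifferentiated cells, and 604 of all genes in the difference between responses. Over all genes, undifferentiated calls were 838 after quantile normalisation and 881 among genes above the median signal, where fewer genes were tested. The difference between responses gave 537 among genes above the median signal and 450 with trended robust eBayes. The cause of these shifts was not tested.

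With the replicate block the calls of the 51 were 30, 28, 17, 9 and 3 in the 5 comparisons, against 30, 28, 16, 10 and 4 without it. It ended the undifferentiated calls of Pdgfb and Pgf and the Vegfa difference in response, added Fgf2 between genotypes in differentiated cells (-0.28, adjusted p = 0.0399, against 0.0506 without it) and Fgf8 in undifferentiated cells, and changed no call in either differentiation. Without detection calls, signals under the array medians, which hold 9 of 22 FGF ligands in all groups, limit what can be said of those genes.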
